A study of Mus musculus with 4 samples.

Results

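The immunoproteasome and peptide transporter loci of mouse embryonic fibroblasts (MEFs, fibroblasts grown from mouse embryos) were compared between naive and pretreated cells after 1 h of interferon-beta. Members were the loci with a transcript ID that overlap 3 intervals of build mm9: the Psmb9, Tap1, Psmb8 and Tap2 interval and the Tapbp interval on chromosome 17, and the Psmb10 interval on chromosome 8. The rule found 8 loci among 17576 in the table. Levels were higher in the pretreated library at 7 of the 8. In the filtered comparison below all 7 were at least 2-fold higher, against 2.83% of 10228 loci. The ratios ran from 2.54-fold at the strongest locus of the Tapbp interval to 17.1-fold at Psmb8. At 1 weakly expressed locus of the Tapbp interval the level was lower. Which locus of that interval is Tapbp is not settled. The intervals were picked with the measured values of this same comparison in view, so the differences below describe the members and were not tested.

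The immunoproteasome is a form of the 20S proteasome in which the catalytic beta subunits Psmb8 (LMP7), Psmb9 (LMP2) and Psmb10 (MECL-1) take the places of the standard catalytic subunits. The peptides it cuts are carried into the endoplasmic reticulum by the transporter TAP, a heterodimer of Tap1 and Tap2, and tapasin (Tapbp) holds the transporter next to MHC class I molecules while peptides are loaded. These genes are well known to be inducible by interferons in many cell types, fibroblasts included.

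The series has 4 samples of polyA RNA, 1 library in each of 4 groups: naive at 0 h, naive at 1 h, pretreated at 0 h and pretreated at 1 h. All groups share the C57BL/6 strain and the H3.3-HA knock-in genotype, in which a tagged H3.3 cDNA stands in place of the H3f3b gene, the controls included. The naive library was from cells given 100 U/ml of interferon-beta for 1 h, and the pretreated library was from cells labelled as pretreated and then given the same dose for 1 h. The agent, length and interval of the pretreatment are not given in the sources used here, and neither is the number of embryos or cultures. Induction by interferon within either state was not computed, since values at 0 h were not used here. The title calls the assay RNA-seq while each sample's description reads scTSS-seq, which was not checked on reads; levels per length hold only for the former.

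The table pairs loci with UCSC transcript IDs, not symbols, so gene names come from the member rule. The names were checked by span, the genomic length from start to end. The deposited spans of Psmb8 (3260 bp), Tap2 (11843 bp) and Psmb10 (2665 bp) equalled the RefSeq spans of these genes in GRCm38.p6 to the base. The span of Psmb9 was 5290 bp against 5301 bp in RefSeq, and that of Tap1 was 9683 bp against 9670 bp. The Tapbp interval is less clear: 3 loci (XLOC_010794, XLOC_010795 and XLOC_011533) are listed with 1 span of 13115 bp, against 9813 bp for Tapbp in RefSeq. GENCODE M21 places Zbtb22 on the same strand and Gm19412 on the opposite strand in overlap with Tapbp. None of the 3 loci is named in the sources used here. Plus-strand Tap1 and Psmb8 are XLOC_010805 and XLOC_010806, and minus-strand Psmb9 is XLOC_011544. By its number XLOC_011533 falls with Psmb9, on the strand opposite to Tapbp, so it may not be Tapbp. XLOC_010794 and XLOC_010795 cannot be told apart in this way. All 3 loci are therefore given by ID. Fibroblast markers and the other proteasome and loading genes drawn up for comparison carry no symbol in the table and were not matched, so the labelled cell type was not checked.

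In mm9, Psmb9 lay at chr17:34318986-34324275, Tap1 at chr17:34324488-34334170, Psmb8 at chr17:34335140-34338399 and Tap2 at chr17:34341424-34353266. Only 212 bases separated Psmb9 from Tap1, 969 bases Tap1 from Psmb8, and 3024 bases Psmb8 from Tap2. The loci of the Tapbp interval lay at chr17:34053121-34066235 and Psmb10 at chr8:108459628-108462292. Tap1 was listed with 5 transcript IDs and XLOC_010795 with 2, and each of the other members with 1. No locus of the table other than those of the Tapbp interval overlapped a member.

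The start regions of Tap1 and Psmb8 are shown because Psmb8 had the highest ratio of the named genes and Tap1, its neighbour, one of the lower ones, and because the Tap1 window is also that of Psmb9. The sequences are those of RefSeq, build GRCm38.p6, plus strand, from 250 bases before to 50 bases after the annotated start. Tap1 is at chr17:34187306-34187605 and Psmb8 at chr17:34197945-34198244 of that build. Capitals mark matches to any of 4 short motifs searched on both strands: AANNGAAA (recognised by interferon regulatory factors), TTCNNNGAA (the GAS element bound by STAT factors), CCAAT and TATAAA. No match overlapped a match to another motif.
Tap1: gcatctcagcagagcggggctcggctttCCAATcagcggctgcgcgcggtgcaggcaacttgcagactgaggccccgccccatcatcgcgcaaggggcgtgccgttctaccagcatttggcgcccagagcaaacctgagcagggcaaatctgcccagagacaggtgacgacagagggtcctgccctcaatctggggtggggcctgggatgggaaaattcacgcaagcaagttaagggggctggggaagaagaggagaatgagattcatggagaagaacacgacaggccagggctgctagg
Psmb8: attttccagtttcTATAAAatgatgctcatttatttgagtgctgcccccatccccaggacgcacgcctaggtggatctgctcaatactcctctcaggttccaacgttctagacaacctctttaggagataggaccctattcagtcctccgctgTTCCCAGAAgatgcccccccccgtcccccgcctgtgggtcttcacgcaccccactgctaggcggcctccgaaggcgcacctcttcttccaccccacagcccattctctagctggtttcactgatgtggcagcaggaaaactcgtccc
Psmb9 starts on the opposite strand inside the first of these windows, and 275 bases are shared by the Psmb9 and Tap1 windows. The capitals in Tap1 are a CCAAT match, which the Psmb9 window holds too. In Psmb8 they are a TATAAA match, whose first base is 237 bases before the start, and a TTCNNNGAA match, whose first base is 97 bases before it.

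Of the genes named, 5 had such a window: Psmb9, Tap1, Psmb8, Psmb10 and Tapbp. The TTCNNNGAA motif was in 1 of the 5 windows, against 8.30% of all 32851 windows of this length. AANNGAAA was in 0 of 5, against 23.9% of all. CCAAT was in 3 of 5 windows (Psmb9, Tap1 and Tapbp), against 37.4%, and TATAAA in 1 of 5, against 13.6%. The Psmb9 and Tap1 windows share 275 bases and the same CCAAT site, so these counts include that sequence more than once. A match is a match of letters only, and its absence says only that these letters are not in the window. GC content was 62.0% in the Psmb9 window and 61.0% in the Tap1 window, 55.3% in the Psmb8 window, 55.0% in the Tapbp window and 45.7% in the Psmb10 window, against a median of 52.7% over all windows. The Psmb10 window held 3 CpG dinucleotides, the Psmb9 window 17, and the median window 7.

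Among the catalytic subunits, Psmb8 had the widest gap between the libraries. Its level, in FPKM (a fragment count divided by the length of the transcript and the library size), was 3.92 FPKM in the naive and 66.9 FPKM in the pretreated library, 17.1-fold higher. An error for this ratio was read from the test statistic of the authors' deposited table, taken as the log ratio over its standard error: the log2 ratio was 4.09 with a standard error of 0.39 and a 95% interval of 3.33 to 4.86. Such errors cover variation within these 2 libraries as the authors' program modelled it, not variation between cultures, for which there is no replicate check. Relative to the naive library, the depth behind the pretreated FPKM values was 0.492, so a given low level rests on fewer reads there; the absolute depth is unknown. In bulk RNA, a difference in the number of cells that express a gene and a difference in RNA per cell cannot be told apart. Psmb9 had 6.36 FPKM in the naive and 55.1 FPKM in the pretreated library, 8.66-fold higher, a log2 ratio of 3.11 (interval 2.49 to 3.74). Psmb10, encoded away from the others on chromosome 8, had 9.43 FPKM in the naive and 36.3 FPKM in the pretreated library. That is 3.84-fold higher, a log2 ratio of 1.94 (interval 1.21 to 2.67). All 3 catalytic subunits had their higher level in the pretreated library.

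By deposited FPKM, the order of the catalytic subunits was turned round between the libraries. Order, sum and shares compare levels of different genes, which holds only if the assay was RNA-seq. The same limit applies below wherever the level of one locus is set against that of another within a library. No error was worked out for the order within either library. In naive cells Psmb10 had the highest level of the 3 and Psmb8 the lowest; in pretreated cells Psmb8 had the highest and Psmb10 the lowest. Their summed level was 19.7 FPKM in the naive and 158 FPKM in the pretreated library, 8.03-fold higher. Psmb8 made up 19.9% of this sum in naive and 42.3% in pretreated cells. Psmb10 made up 47.9% and 22.9%, and Psmb9 32.3% and 34.8%. The ratio of Psmb8 to Psmb10 was 0.415 in naive and 1.84 in pretreated cells, a difference of 2.15 ± 0.54 (SE) on the log2 scale. The ratio of Psmb8 to Psmb9 was 0.616 and 1.21, a difference of 0.98 ± 0.51 (SE).

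**Figure D1:**
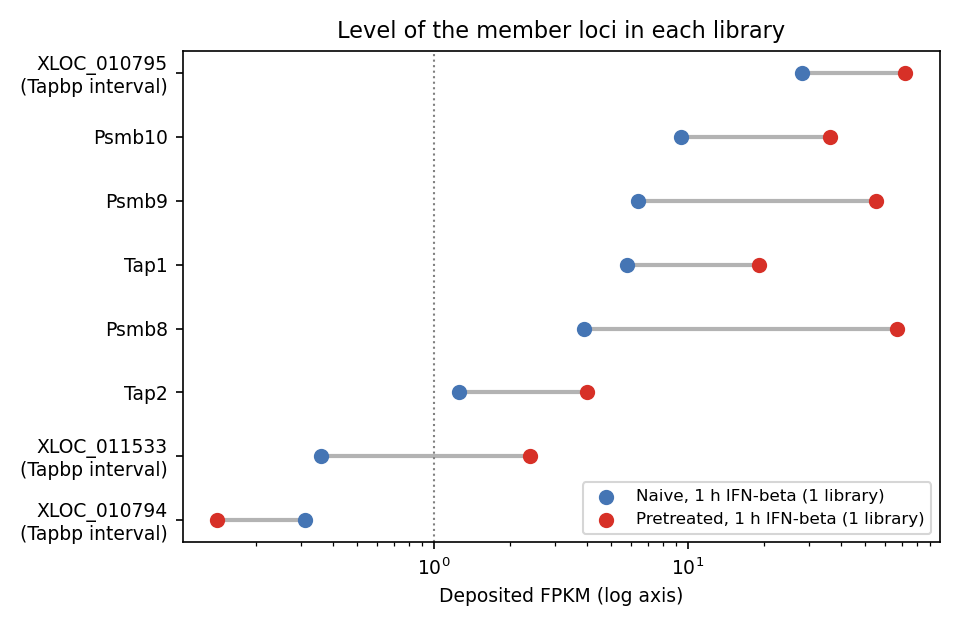
Deposited FPKM (log axis) of the 8 member loci, sorted by the naive level, with 1 point for the naive and 1 for the pretreated library at 1 h of interferon-beta and a dotted line at 1 FPKM. Psmb8 moves from 3.92 to 66.9 FPKM and passes Psmb9, Psmb10 and Tap1, while XLOC_010794 alone lies lower in the pretreated library.

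Both subunits of the transporter were higher in pretreated cells, by nearly the same factor. Tap1 had 5.76 FPKM in the naive and 19.1 FPKM in the pretreated library, 3.32-fold higher, a log2 ratio of 1.73 (interval 1.10 to 2.36). Tap2 had 1.26 FPKM in the naive and 4.02 FPKM in the pretreated library, 3.20-fold higher, a log2 ratio of 1.68 (interval 0.86 to 2.50). Tap1 exceeded Tap2 4.58-fold in naive and 4.75-fold in pretreated cells, a difference of 0.05 ± 0.53 (SE) on the log2 scale, so the subunit ratio differed between the libraries by much less than its error. That error still leaves room for an unequal change.

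Psmb9 and Tap1, which start on opposite strands of the short stretch printed above, were also set side by side. Psmb9 was 1.11 times Tap1 in naive and 2.88 times Tap1 in pretreated cells, a difference of 1.38 ± 0.45 (SE) on the log2 scale. These differences between members come from the comparison on which the members were picked and from 1 library per group, and were not tested.

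In the Tapbp interval, XLOC_010795 carried nearly all of the signal. It had 28.3 FPKM in the naive and 72.0 FPKM in the pretreated library, the highest level of all members in both libraries. Its ratio was 2.54-fold, or 1.35 on the log2 scale (interval 0.91 to 1.78). XLOC_010795 exceeded Psmb8 7.22-fold in naive cells and 1.08-fold in pretreated cells. XLOC_011533 had 0.359 FPKM in the naive and 2.40 FPKM in the pretreated library, a log2 ratio of 2.74 with a wide interval of 1.26 to 4.21. XLOC_010794 had 0.310 FPKM in the naive and 0.140 FPKM in the pretreated library, a log2 ratio of -1.15 (interval -2.71 to 0.41). The authors' division of reads among these 3 loci cannot be checked, and the low values of XLOC_011533 and XLOC_010794 lie beside a far stronger locus of the same span.

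**Figure D2:**
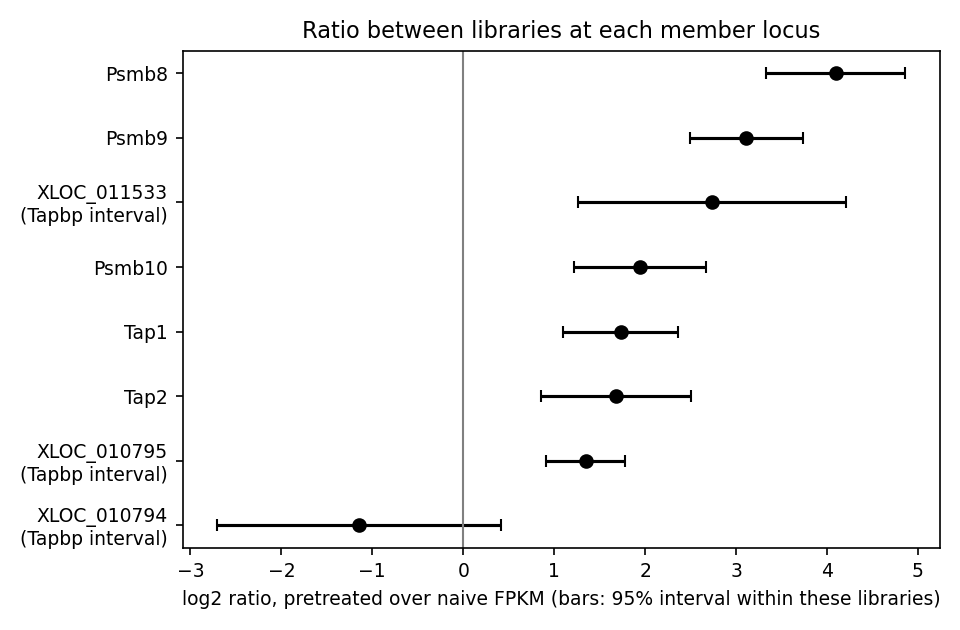
Log2 ratio of pretreated to naive FPKM at the 8 member loci (points), with the 95% interval within these 2 libraries read from the authors' test statistic (bars). The points run from -1.15 (XLOC_010794) to 4.09 (Psmb8), and the bars are widest at XLOC_010794 and XLOC_011533, the loci of lowest level.

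To set the members against the whole table, the change was taken as the difference of log2(FPKM + 1), which understates low loci, at the 10228 loci with a mean of at least 1 FPKM. Of the 8 members, 7 passed this filter. XLOC_010794, with a mean of 0.225 FPKM, did not. XLOC_011533, which may not be Tapbp, passed only through its pretreated value. All 7 were at least 2-fold higher in the pretreated library, where 2.83% of all loci were, and 0 were at least 2-fold lower, where 7.12% of all loci were. Centred on the median of all loci, the same threshold gave 423 higher and 527 lower loci against 289 and 728 uncentred, with the member count at 7 either way. The median change of the 7 members was 1.57, against -0.16 over all 10228 loci, whose quartiles were -0.51 and 0.17. Since the intervals were picked on this contrast, the count is what the choice gives and supports nothing by itself.

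The changes ranked 24 (Psmb8, 3.79), 50 (Psmb9, 2.93), 112 (Psmb10, 1.84), 147 (Tap1, 1.57), 192 (XLOC_011533, 1.32), 195 (XLOC_010795, 1.32) and 237 (Tap2, 1.15) from the top of the 10228 loci. At 4-fold, Psmb8 and Psmb9 were the 2 members among 99 such loci in the table. The members also differed in how high they stood among the 9227 filtered loci with a transcript ID. Psmb8 exceeded 36.2% of these in the naive and 90.1% in the pretreated library. Psmb9 exceeded 49.7% and 88.6%, and Psmb10 59.6% and 84.4%. XLOC_010795 exceeded 80.0% and 90.6%, and Tap1 47.1% and 75.8%. Tap2 stayed the lowest of the named genes, above 5.72% of loci in the naive and 40.6% in the pretreated library. These standings compare levels of different genes and hold only if the assay was RNA-seq.

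**Figure D3:**
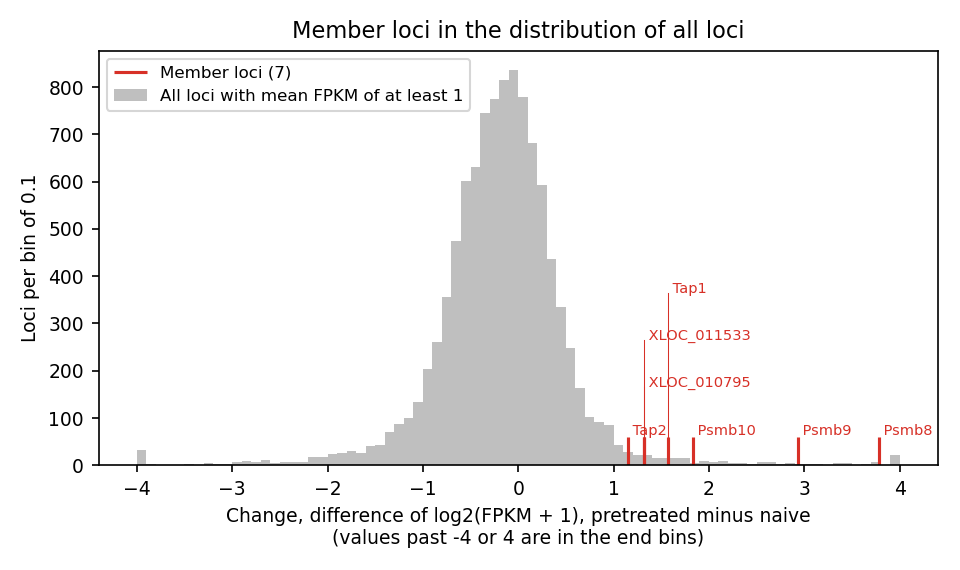
Number of loci per bin of 0.1 (grey) against the change in log2(FPKM + 1), pretreated minus naive, over 10228 loci, with the 7 filtered members as red lines. The bulk of loci is centred at -0.16, and the members run from 1.15 (Tap2) to 3.79 (Psmb8).

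In the authors' deposited table all 8 members were tested and 7 were called at a q-value under 0.05, all 7 higher in the pretreated library. Of the 13388 loci tested there, 3.91% were called higher and 11.9% lower. The authors' deposited table lists the q-values of Psmb8 and Psmb9 as 0. For XLOC_010795 the authors' deposited table gives 9.22e-08, for Tap1 4.79e-06 and for Psmb10 1.09e-05. The authors' deposited table gives 0.00165 for Tap2, 0.00515 for XLOC_011533 and 0.345 for XLOC_010794, the member without a call. These compare the reads of 1 library per condition, not the conditions.

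Loci next to the 3 intervals differed by less than 2-fold on the log2(FPKM + 1) scale, but for some this rests on the pseudocount. On the left, the nearest locus with a transcript ID, XLOC_010804, lay 21811 bases away with 5.21 FPKM in the naive and 11.4 FPKM in the pretreated library, a change of 0.99 on that scale and a ratio of 2.18-fold without the pseudocount. On the right, 9853 bases from Tap2, 8 loci shared a span of 362369 bp and none reached a mean of 1 FPKM. The highest, XLOC_011549, had 0.0365 FPKM in the naive and 0.598 FPKM in the pretreated library, 16.4-fold without the pseudocount. Of these 8 loci, 4 were listed at 0 in the naive and 0 in the pretreated library. XLOC_010815 went the other way, with 0.246 FPKM in the naive and 0.0441 FPKM in the pretreated library. Around the Tapbp interval, XLOC_010793 lay 585 bases to the left with 14.7 FPKM in the naive and 26.1 FPKM in the pretreated library, and XLOC_010796 lay 603 bases to the right with 1.07 and 2.95 FPKM. Their changes were 0.79 and 0.93. Without the pseudocount the ratio was 1.78-fold at XLOC_010793 and 2.76-fold at XLOC_010796, the latter above the 2.54-fold of the member XLOC_010795. The neighbours of Psmb10, 1865 and 1158 bases away, had at most 0.248 FPKM in either library.

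Within 1 Mb of the centre of the Psmb9 to Tap2 interval, 49 other loci passed the filter, of which 4 were at least 2-fold higher and 2 lower, with a median change of 0.14. The most changed was XLOC_011538, with 36.3 FPKM in the naive and 1692 FPKM in the pretreated library. It and XLOC_011537 lie between the Tapbp interval and the Psmb9 interval, 212 kb from the centre of the latter. Within 100 kb, 0 of 3 other filtered loci were 2-fold higher. Around the Tapbp interval, 4 of 41 other filtered loci within 1 Mb were at least 2-fold higher and 0 lower. These are the same 4 loci as around the Psmb9 to Tap2 interval, since the windows overlap. Within 100 kb of the centre of the Tapbp interval, 2 of 10 were higher, with XLOC_011538 at 64.8 kb. Around Psmb10, 0 of 33 other filtered loci within 1 Mb were at least 2-fold higher and 3 were lower. None of these 3 loci (XLOC_026784, XLOC_026786 and XLOC_026787) has a transcript ID.

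**Figure D4:**
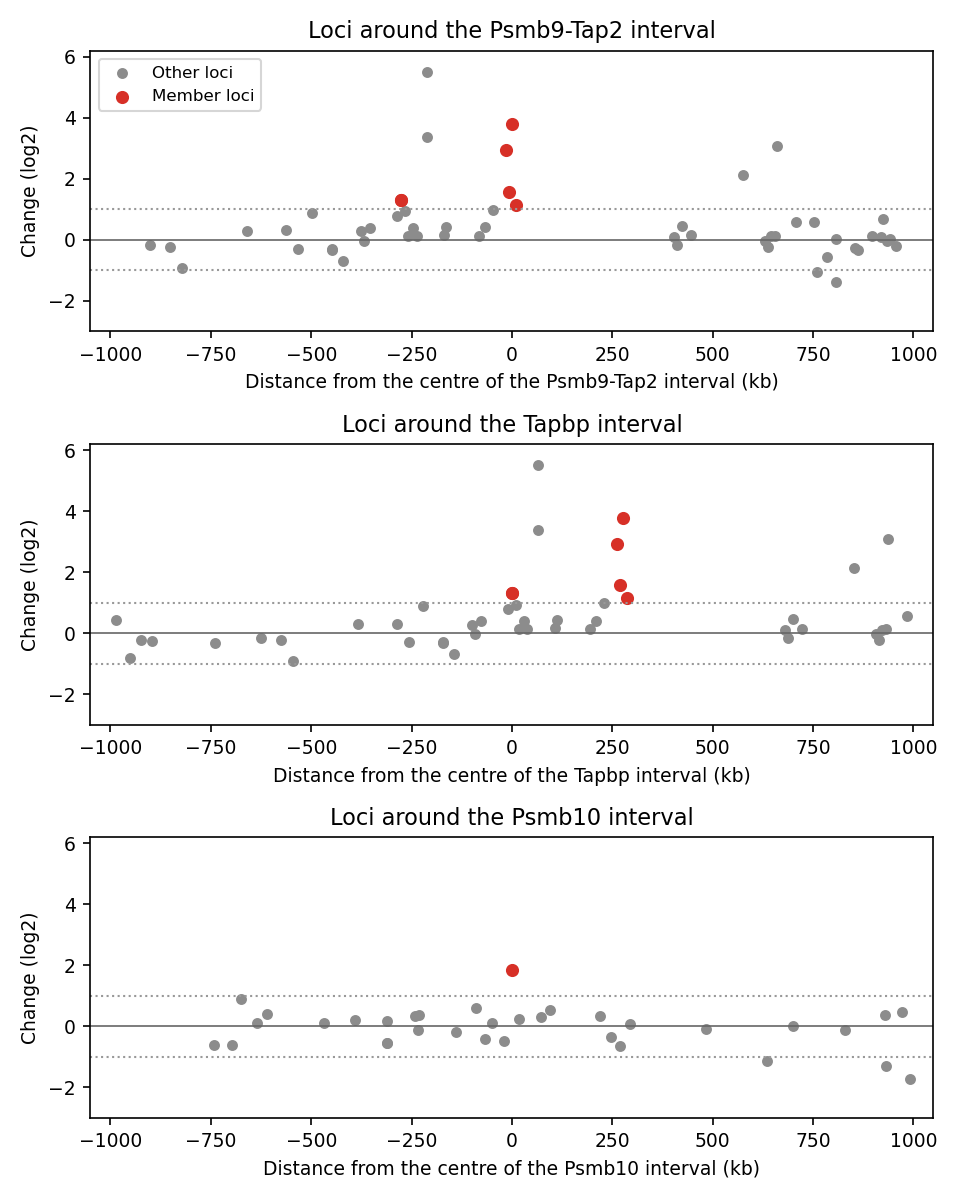
Change in log2(FPKM + 1), pretreated minus naive, of filtered loci against the distance in kb of their centre from that of the Psmb9 to Tap2 interval (top), the Tapbp interval (middle) or the Psmb10 interval (bottom); red points are members and dotted lines mark 2-fold. The 4 genes of the top interval form a group above the line, the Tapbp interval has 2 coinciding points with other higher loci nearby, and Psmb10 is the one point above the line in its panel.

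GENCODE M21 annotates antisense genes over several members: Gm20496 over Psmb8 and Tap2, Gm15821 over Tap2, Gm16156 over Psmb10 and Gm19412 over Tapbp. It also has Psmb9 and Tap1 overlap each other at their starts. Strand use in the authors' counting is not given in the sources used here, so reads from these genes and from the members cannot be told apart.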

How the data were processed

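PolyA RNA of 2 of the 4 samples, naive and pretreated at 1 h, was compared; the other samples were not analysed here. The authors deposited 1 table of FPKM values per locus (fragments scaled by transcript length and mapped fragments) beside log2 fold changes, test statistics (a score), p-values and q-values. The submitters' processing notes name TopHat, Cufflinks 1.2.1 and build mm9; the annotation, filters and scaling between libraries are not given in the sources used here. Starts were raised by 1 to be 1-based, since deposited end minus start equalled RefSeq spans. Columns were matched to libraries through the sample names in each row. Loci of status FAIL or HIDATA were left out.

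Changes were differences of log2(FPKM + 1) at a mean FPKM of at least 1; ratios of members used no pseudocount. With 1 library per group no test was run. The error of a log2 ratio was its size over the authors' deposited test statistic. The two-sided normal tail of that statistic differed from the deposited p-value by at most 2.86e-06 over 13009 loci. Relative depth was read at 14 spans from loci listed at 0 in one library whose deposited p-value was that of 1 to 4 reads; the log2 value of 1 pretreated over 1 naive read ran from 1.00 to 1.03. Of 38980 transcript IDs, 0 were found in the name tables. All members were named, with the nearest locus with a transcript ID on each side; loci within 1 Mb, the ratios between members and the motifs were chosen after values were seen. The members and lists were chosen with earlier results of these data known. Python 3.11.15, numpy 2.4.6, pandas 2.3.3 and scipy 1.17.1 were used.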

Additional observations from a re-analysis of the deposited data

How the results depend on the processing

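No paired analysis was possible because only 1 library stands for each group, and for the same reason no replicate could be left out. There were 9 alternatives, 2 of them added after seeing the data (1 FPKM in both libraries, and loci sharing their span with no other). No member passed 2-fold on the lower side under any of them, but all of them kept a pseudocount. Without a pseudocount, XLOC_010794 was 2.22-fold lower in the pretreated library. The 7 higher members became 5 at a mean of 5 FPKM and without shared spans, and 6 at 1 FPKM in both libraries. In these settings the filter removed the missing members, and all that it left were at least 2-fold higher. At a 4-fold threshold, 2 members were higher. The median change of the members lay between 1.45, without a filter, and 1.93, with a pseudocount of 0.1. Over all loci, 465 were higher and 1175 lower with that pseudocount. The counts were 176 and 452 at a mean of 5 FPKM, and 99 and 143 at 4-fold. Among loci with a transcript ID, 391 were lower. At 1 FPKM in both libraries, 189 were higher. The totals left by the changed filters are not given here, so these counts cannot be read as shares. The pseudocount of 0.1 moved the low members most: XLOC_011533 from 1.32 to 2.44, XLOC_010794 from -0.20 to -0.77 and Tap2 from 1.15 to 1.60. Filters cannot move the value of a locus and show no stability. With 1 library per group, variation between cultures and an effect of pretreatment cannot be told apart.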
